A study of Bos taurus with 6 samples.

Results

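The inflammation-linked miRNAs miR-21, miR-146a, miR-146b, miR-155 and miR-223, were examined in bovine milk extracellular vesicles (EVs). The members were the rows of the count table with these numbers in a Bos taurus name, with or without an arm suffix. This gave 5 members, bta-miR-21-5p, bta-miR-146a, bta-miR-146b, bta-miR-155 and bta-miR-223, of 779 miRNAs in all, of which 276 were known and 503 predicted. The rows used here hold 1 arm of each precursor. The data came from 6 Holstein cows in mid lactation, with a mean of 101 days in milk, housed in chambers of constant temperature and humidity. On the control diet, 3 cows received a total mixed ration (TMR), and on the replacement diet, 3 other cows received a feed with whole cotton seed and soybean hull in place of part of the alfalfa hay. Each library was made from the milk EVs of 1 cow, isolated with a Total Exosome Isolation kit. The labels give no somatic cell count and no udder health record, so the diets were the only groups that could be compared.

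A miRNA silences mRNAs that pair with its seed, the bases from 2 to 8 of the mature strand. In textbook accounts, miR-155 and miR-146a are switched on by Toll-like receptor and NF-κB signalling in macrophages, miR-155 favouring the inflammatory response and miR-146a restraining it through the adaptors TRAF6 and IRAK1. The paralog miR-146b carries the same seed, miR-21 is widely expressed and is induced by STAT3, and miR-223 is abundant in neutrophils and monocytes. In milk such miRNAs can come from the mammary epithelium as well as from the leukocytes that enter the udder, and EV counts do not tell these sources apart.

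The mature sequences are shown because the seed decides which mRNAs a member can pair with, and because the miR-146 pair can be counted apart by a single base only. They are given as deposited, as DNA letters from 5′ to 3′. Capitals mark the seed and, in the miR-146 pair, also the base in which both differ.
bta-miR-21-5p: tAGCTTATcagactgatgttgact
bta-miR-146a: tGAGAACTgaattccataggTtgt
bta-miR-146b: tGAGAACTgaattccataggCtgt
bta-miR-155: tTAATGCTaatcgtgataggggt
bta-miR-223: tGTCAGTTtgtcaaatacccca

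The members fell into 4 seed groups, of which only that of miR-146a and miR-146b held more than 1 member. No other known or predicted miRNA of the table had the same bases at positions 2 to 8. Between bta-miR-146a and bta-miR-146b the difference was T21C, counted from 1 at the 5′ end. For bta-miR-21-5p, bta-miR-155 and bta-miR-223, no other sequence in the table lay within 2 nt, and the nearest differed by 9, 8 and 9 nt. The members were 22 to 24 nt long. The members bta-miR-21-5p, bta-miR-146a and bta-miR-146b had 24 nt, a length that 20 of the 276 known miRNAs (7.25%) had. Their GC content lay between 37.5% and 41.7%, against a median of 45.8% over the known miRNAs.

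RefSeq lists 1 precursor gene for each member on the assembly ARS-UCD2.0. The submitters' processing notes name ARS-UCD1.2, so no coordinates are given. MIR223 lies within the span of VSIG4, which encodes a complement receptor of macrophages, and of the lncRNA gene LOC132344326. MIR21 lies within 10 kb of VMP1, a gene of autophagy, MIR155 within 10 kb of MRPL39, and MIR146B within 10 kb of CUEDC2. The 2 genes of the miR-146 pair are not neighbours, and the only gene within 10 kb of MIR146A was the pseudogene LOC112447640.

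Levels are given as a percent of a cow's known miRNA counts, which numbered 61156 to 176919. All miRNAs together received 271061 to 556489 counts, and known miRNAs took 15.8% to 42.0% of them. A known miRNA without a count could hold a share of up to 0.0017% in the deepest and 0.00491% in the shallowest library, the limit set by 3 counts. Intervals and limits cover counting error only. Control cow 3 stood apart from the others in the 7 listed red blood cell markers, with 20.8% of the known counts against 6.68% to 11.4%. Diet values and ranges that move most without this cow are given without it as well.

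The 5 members together held 1.37% ± 0.264 (SD, n = 6 cows) of the known miRNA counts. The lowest summed share was 0.997% (95% Wilson interval 0.922% to 1.08%), in control cow 3, and the highest was 1.67% (95% Wilson interval 1.58% to 1.77%), in replacement cow 3. Most of it was bta-miR-21-5p, which took 66.4% to 85.1% of the members' counts in a cow. All values that follow are counts per mature sequence. No length term was applied when members were compared. How far the reads cover each mature strand is not given in the sources used here.

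Among the members, bta-miR-21-5p, the growth- and inflammation-linked miRNA, was the most abundant in 6 of 6 cows. Its share was 0.826%, 1.24% and 0.662% in control cows 1 to 3 and 1.15%, 1.07% and 1.26% in replacement cows 1 to 3. The mean was 1.03% ± 0.239 (SD, n = 6), at rank 19 of the known miRNAs and between ranks 15 and 25 in single cows. The range between cows was 1.90-fold, or 1.52-fold without control cow 3, and the low values were those of control cows 1 and 3. Its neighbours in mean share were bta-miR-192 with 1.06% ± 0.507 (SD, n = 6) and bta-miR-30e-5p with 1.00% ± 0.171 (SD, n = 6), and it differed from neither beyond their spread. With the red blood cell markers left out of the total, the share in control cow 3 was 0.836%, still the lowest, next to 0.932% in control cow 1.

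The inducible feedback miRNA bta-miR-146a was the second member by mean share, with 0.132% ± 0.0757 (SD, n = 6) at rank 63. Its share was 0.150%, 0.112% and 0.0507% in control cows 1 to 3, and 0.0723%, 0.265% and 0.139% in replacement cows 1 to 3. Replacement cow 2 was the highest and control cow 3 the lowest, a 5.23-fold range that was 2.97-fold without replacement cow 2. Neither neighbour in mean share differed from it beyond the spread, since bta-miR-103 (0.133% ± 0.0955, SD, n = 6) and bta-miR-30f (0.129% ± 0.0678, SD, n = 6) were each above it in 3 of 6 cows.

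The other member of this seed group, bta-miR-146b, held 0.113% ± 0.0828 (SD, n = 6) at rank 67. Its share was 0.0738%, 0.0608% and 0.245% in control cows 1 to 3, and 0.0124%, 0.123% and 0.161% in replacement cows 1 to 3. The highest was control cow 3, with 150 counts, and the lowest was replacement cow 1, with 22 counts in the library with the most known miRNA counts. The range over all 6 cows was 19.7-fold. It was 4.04-fold without replacement cow 1, below the 6.45-fold of bta-miR-223 over the same cows, and 12.9-fold without control cow 3. The mean difference between bta-miR-146a and bta-miR-146b was 0.0190 ± 0.117 percentage points (SD, n = 6), so their order was not set apart from the spread.

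The myeloid miRNA bta-miR-223 had 18, 119 and 7 counts in control cows 1 to 3 and 166, 54 and 19 counts in replacement cows 1 to 3. These are shares of 0.0255%, 0.0738% and 0.0114% on the control diet and 0.0938%, 0.0561% and 0.0273% on the replacement diet. The mean was 0.0480% ± 0.0319 (SD, n = 6), at rank 85, with single cows between ranks 64 and 135. The range was 8.20-fold over all cows and 3.67-fold without control cow 3. Replacement cow 1 and control cow 2 were highest, and the 95% Wilson intervals of both (0.0806% to 0.109% and 0.0617% to 0.0883%) lay above those of control cows 1 and 3 and replacement cow 3. These 2 cows also had the highest counts of known miRNAs. From the lowest to the highest, the order of cows by bta-miR-223 was that of the known counts except that control cow 1 and replacement cow 3 changed places. The part of depth in the bta-miR-223 values was not tested.

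The activation-linked bta-miR-155 was the lowest member, with 35, 87 and 17 counts in control cows 1 to 3 and 41, 28 and 62 counts in replacement cows 1 to 3. Its share was 0.0497%, 0.0540% and 0.0278% on the control diet and 0.0232%, 0.0291% and 0.0890% on the replacement diet. The mean was 0.0455% ± 0.0248 (SD, n = 6), at rank 87. Replacement cow 3 was the highest, with a 95% Wilson interval of 0.0695% to 0.114%, and replacement cows 1 and 2 were among the lowest. The mean difference between bta-miR-223 and bta-miR-155 was 0.00255 ± 0.0463 percentage points (SD, n = 6), with bta-miR-223 the higher in 3 of 6 cows.

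**Figure D1:**
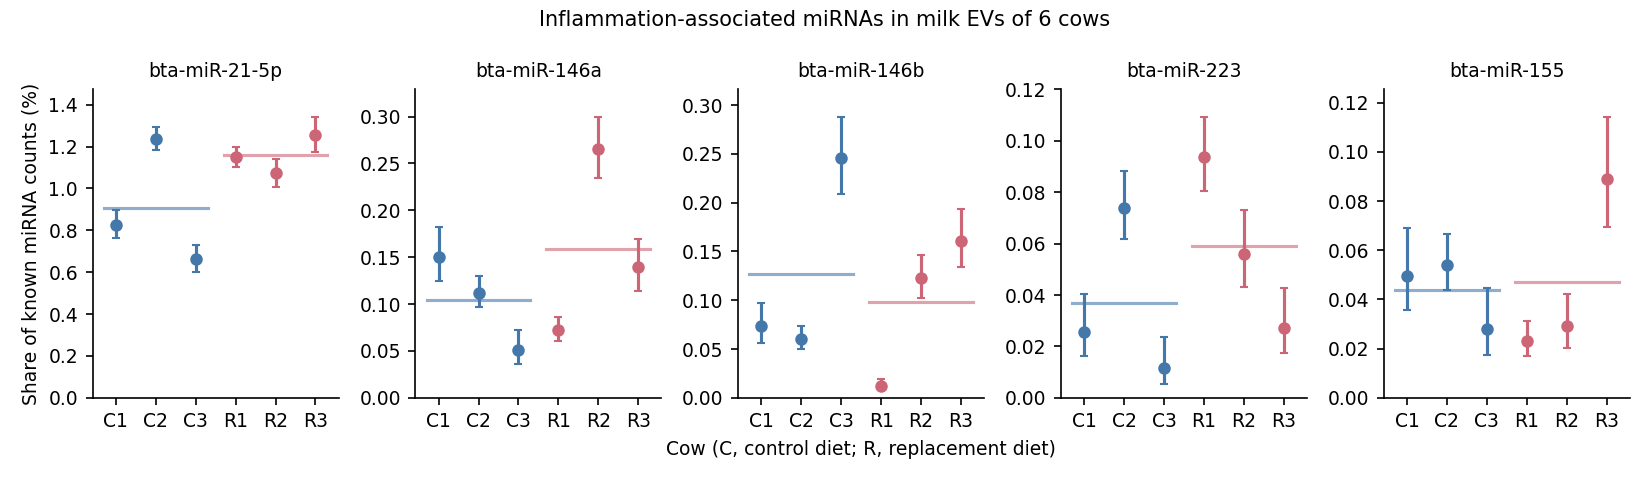
Share of the known miRNA counts (%, each panel with its own axis from 0) for the 5 members in 3 control cows (C1 to C3, blue) and 3 replacement cows (R1 to R3, red). Points are single cows with 95% Wilson intervals and lines are diet means, and the diets overlap in every panel.

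Cows did not stand in the same order for the members. Control cow 3 was the lowest in bta-miR-21-5p, bta-miR-146a and bta-miR-223 but the highest in bta-miR-146b. Replacement cow 1 was the highest in bta-miR-223 and the lowest in bta-miR-146b and bta-miR-155. Replacement cow 3 was the highest in both bta-miR-21-5p and bta-miR-155. No cow was the highest in more than 2 of the 5 members.

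The spread between cows is given beside the counting error of each member. The coefficient of variation (CV, the SD as a percent of the mean) was 23.2% for bta-miR-21-5p, where counting error alone would give 3.21%. For bta-miR-146a it was 57.5% against 9.21%, for bta-miR-146b 73.5% against 10.9%, for bta-miR-155 54.5% against 16.1%, and for bta-miR-223 66.5% against 13.5%. The median CV over the 84 known miRNAs with at least 10 counts in every cow was 38.7%. Among these 84, bta-miR-146b had the 8th highest CV, bta-miR-146a the 20th and bta-miR-155 the 22nd, while bta-miR-21-5p stood at place 72. Leaving out 1 cow moved bta-miR-146b to place 17 (without replacement cow 1), bta-miR-146a to place 37 (without replacement cow 2) and bta-miR-155 to place 44 (without replacement cow 3). The member bta-miR-223 was not ranked, because control cow 3 had 7 counts. The 84 include miRNAs of far higher share, up to the 18.1% of bta-miR-26a, whose CV was 9.55%. Of the neighbours in mean share among the 84, bta-miR-103 and bta-miR-30f beside bta-miR-146a had CVs of 71.9% and 52.4%. Beside bta-miR-146b, bta-miR-142-5p and bta-miR-421 had 70.0% and 43.6%, and beside bta-miR-223, bta-miR-374a had 30.3%. Beside bta-miR-21-5p, bta-miR-192 had 47.9% and bta-miR-30e-5p 17.1%, on either side of its own 23.2%. The part of the level in these CVs was not tested.

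**Figure D2:**
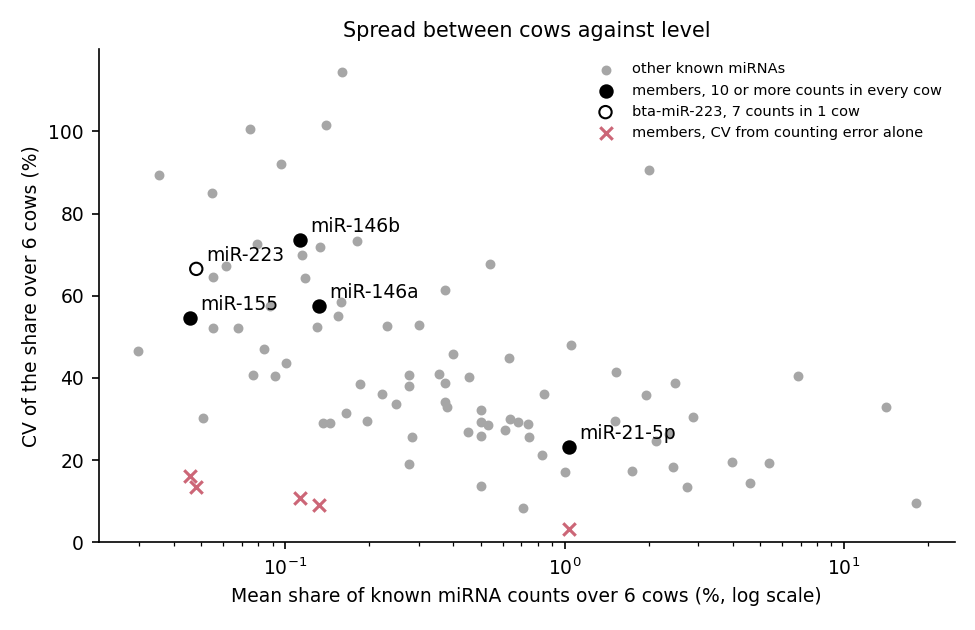
CV of the share over 6 cows (%) against the mean share (%, log scale) for 84 known miRNAs with at least 10 counts in every cow and for bta-miR-223 (open circle). Members are black, crosses are the CV that counting error alone would give, and 4 members lie above the median CV of 38.7% while bta-miR-21-5p lies below it. The 84 include miRNAs of far higher share than these 4 members.

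The balance within the miR-146 pair changed from cow to cow. The pair had 798 counts of bta-miR-146a and 552 of bta-miR-146b over all cows. In control cow 3, bta-miR-146a took 17.1% of the pair (95% Wilson interval 12.3% to 23.3%), with 31 counts against 150. In replacement cow 1 it took 85.3% (95% Wilson interval 78.8% to 90.1%), with 128 counts against 22. The other cows lay between these, with 67.1% and 64.9% for control cows 1 and 2, then 68.4% and 46.4% for replacement cows 2 and 3. The intervals of control cow 3 and of replacement cow 1 overlapped with that of no other cow. The diets did not differ in this balance beyond the spread between cows, with 49.7% ± 28.2 (SD, n = 3) for control and 66.7% ± 19.5 (SD, n = 3) for replacement cows (exact permutation test, two-sided, p = 0.5). With 3 cows a diet, the smallest p that this test can give is 0.1. Without control cow 3, the control mean was 66.0%, and the difference fell from 17.0 to 0.722 percentage points. Both summed, the pair held 0.244% ± 0.107 (SD, n = 6), with a CV of 43.8% and a range of 4.57-fold, which was 2.24-fold without replacement cow 1.

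For comparison, the known miRNAs with at least 10 counts in every cow held 8 pairs that differ by 1 nt, a comparison added after the values of the miR-146 pair were seen. The ratio of bta-miR-146a to bta-miR-146b ran from 0.207 to 5.82, a 28.2-fold range and the widest of the 8 over all cows. This place rested on control cow 3: without it the range was 6.72-fold, under the 8.44-fold of bta-miR-10174-3p and bta-miR-23b-3p, and without replacement cow 1 it was 10.5-fold. Over all cows, the next were 8.44-fold for bta-miR-10174-3p and bta-miR-23b-3p and 4.07-fold for bta-miR-30a-5p and bta-miR-30d. The narrowest was 1.95-fold for bta-let-7a-5p and bta-let-7f. The mean shares of bta-miR-146a (0.132%) and bta-miR-146b (0.113%) were the lowest of all miRNAs in the 8 pairs. The nearest was bta-miR-23b-3p with 0.158%, while bta-let-7f had 3.99%. The part of the level in these ranges was not tested. How reads that match more than 1 miRNA were assigned is not stated in the sources used here, so counts of such pairs are uncertain.

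**Figure D3:**
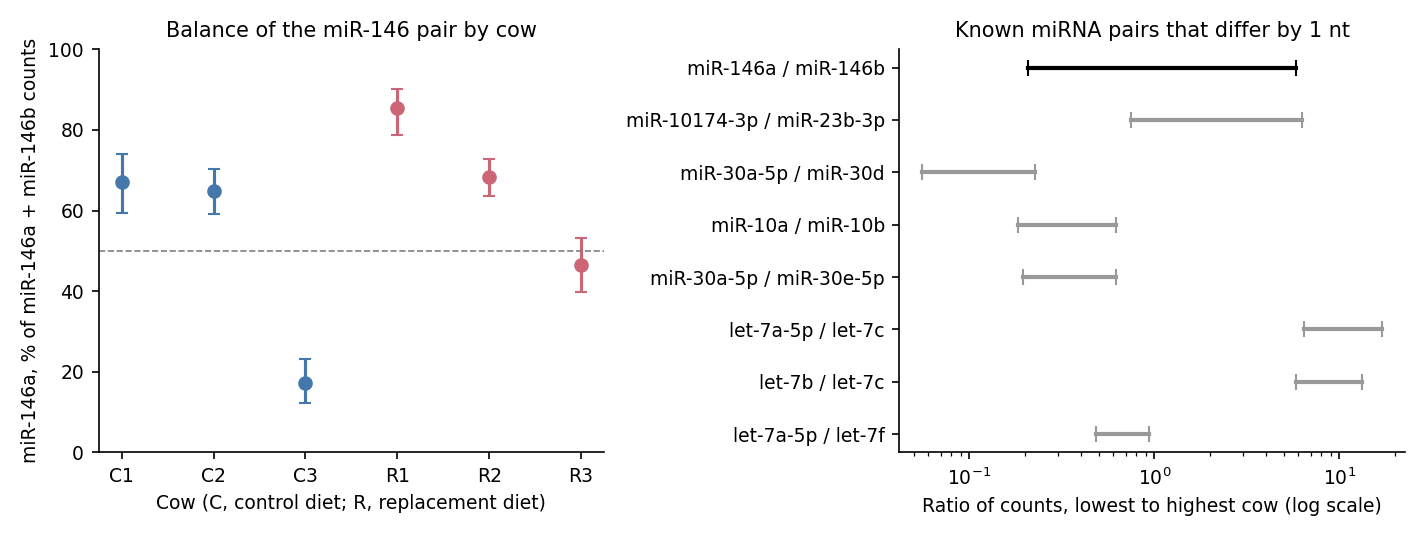
Left, share of bta-miR-146a in the summed counts of bta-miR-146a and bta-miR-146b (%) per cow with 95% Wilson intervals, where the dashed line marks equal counts. Right, range over 6 cows of the ratio of counts in 8 known miRNA pairs that differ by 1 nt (log scale), with the miR-146 pair in black at 28.2-fold, which was 6.72-fold without control cow 3.

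The diets were compared to ask whether the feed changed these miRNAs in milk EVs. For none of the 5 members was a difference found that passed the test. All 5 passed the filter on low counts, and 0 of them had an adjusted p under 0.05 in edgeR's quasi-likelihood test, as had 0 of the 227 miRNAs tested (0%). At an unadjusted p under 0.05 there were 0 of 5 members against 8 of 227 miRNAs (3.52%). DESeq2, without that filter, called 7 of 390 miRNAs, none of them a member, and limma called 0 of 227, with 12 at an unadjusted p under 0.05. For every member the shares of the 2 diets overlapped, and 11 of 128 known miRNAs tested (8.59%) had diets without overlap. The 5 members are too few to be set apart from that share.

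The mean share of bta-miR-21-5p was 0.908% ± 0.296 (SD, n = 3) in control cows, against 1.16% ± 0.0920 (SD, n = 3) in replacement cows. Control cow 2 lay within the range of the replacement cows and control cows 1 and 3 below it (two-sided exact permutation test, p = 0.3). The log2 fold change, replacement over control, was 0.32 (standard error 0.46, 95% confidence interval -0.74 to 1.39, edgeR adjusted p = 0.986). Without control cow 3 it was -0.012, and without control cow 2 it was 0.90.

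For bta-miR-146a the control cows held 0.104% ± 0.0503 (SD, n = 3) and the replacement cows 0.159% ± 0.0978 (SD, n = 3), and the log2 fold change was 0.54 (95% confidence interval -1.08 to 2.16). Without replacement cow 2 it was -0.059, and without control cow 3 it was 0.13. For bta-miR-146b the values were 0.127% ± 0.103 (SD, n = 3) and 0.0986% ± 0.0771 (SD, n = 3), with a log2 fold change of -0.45 (95% confidence interval -2.52 to 1.63). Its sign turned without control cow 3 (0.23) and without replacement cow 1 (0.020). With both counted as 1 miRNA, the log2 fold change was 0.092 (standard error 0.54, edgeR adjusted p = 0.994).

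For bta-miR-223 the control cows held 0.0369% ± 0.0327 (SD, n = 3) and the replacement cows 0.0591% ± 0.0334 (SD, n = 3). The log2 fold change was 0.70 (95% confidence interval -1.82 to 3.21), and it was 2.08 without control cow 2, 0.16 without control cow 3 and -0.13 without replacement cow 1. For bta-miR-155 the shares were 0.0438% ± 0.0140 (SD, n = 3) and 0.0471% ± 0.0364 (SD, n = 3), with a log2 fold change of -0.075 (95% confidence interval -2.10 to 1.95), and it was 0.34 without control cow 2, -0.47 without control cow 3 and -0.62 without replacement cow 3. The edgeR adjusted p was 0.986 for each of these 4 members too. The intervals are wide, so these data do not show that the diets were alike: a change of bta-miR-223 by 3.21 on the log2 scale or of bta-miR-21-5p by 1.39 would lie within them. The median log2 fold change of the 5 members was 0.32, which is the value of bta-miR-21-5p, beside 0.029 over all 227 miRNAs tested. Over the 128 known miRNAs among these it was 0.0085. Regardless of sign, the median change was 0.45 for the members, 0.56 over all 227 and 0.40 over the 128 known miRNAs.

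**Figure D4:**
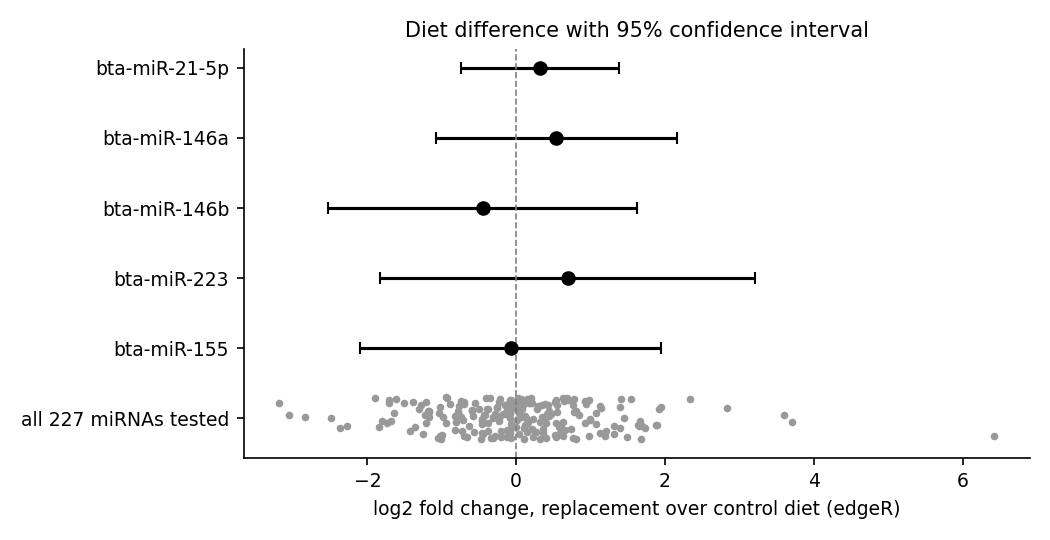
Log2 fold change, replacement over control diet, of the 5 members with 95% confidence intervals from edgeR, above the same value for all 227 miRNAs tested (grey, spread vertically for display). Every interval includes 0, and the members lie between -0.45 and 0.70.

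Of a list of 8 further miRNA numbers tied to inflammation, 4 were found in the table, miR-125b, miR-132, miR-221 and miR-222. Of these, bta-miR-125b and bta-miR-221 had at least 10 counts in every cow. The most abundant was bta-miR-125b, which falls in macrophages after endotoxin in textbook accounts, with 0.748% ± 0.191 (SD, n = 6). Only bta-miR-221, from the same transcript as miR-222, had diets without overlap. Control cows 1 to 3 had shares of 0.142%, 0.246% and 0.118%, and replacement cows 1 to 3 had 0.114%, 0.0655% and 0.0230%. The permutation test gave p = 0.1 (two-sided, exact, the smallest that this design can give), and edgeR gave a log2 fold change of -1.18 (standard error 0.87, adjusted p = 0.986). A complete separation with the lower values on the replacement diet occurred in 6 of 128 known miRNAs tested (4.69%). The partner bta-miR-222 did not separate, with 15, 46 and 10 counts on the control diet and 66, 1 and 1 on the replacement diet, and bta-miR-132 had 4 counts in control cow 1 and 0 elsewhere. The list had 3 rows that passed the filter, with a median log2 fold change of -0.37 and 0 called.

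Markers of the cells that could carry these miRNAs were read beside them. Fewer cells of a type and less RNA per cell cannot be told apart in such libraries. The 5 listed leukocyte markers held 2.55% to 3.38% on the control diet and 2.28% to 3.31% on the replacement diet. The lymphoid bta-miR-150 made up 42.9% to 59.2% of this sum in single cows. The pan-leukocyte bta-miR-142-5p was present in every cow, at 0.0170%, 0.105% and 0.186% in control cows 1 to 3 and at 0.0825%, 0.0644% and 0.233% in replacement cows 1 to 3, while bta-miR-142-3p had 1 count in control cow 3 and 0 elsewhere. Cows were not in the same order for bta-miR-142-5p and bta-miR-223: control cow 3, the lowest in bta-miR-223, was the second highest in bta-miR-142-5p, and replacement cow 1, the highest in bta-miR-223, was the fourth highest.

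The 10 mammary epithelium markers held 0.791% to 1.18% on the control diet and 0.420% to 0.856% on the replacement diet. The milk marker bta-miR-148a had 326 to 1329 counts in a cow, and its mean share of 0.639% was most of the list's mean of 0.820%. The other markers were lower, with 10 to 100 counts for bta-miR-375, 0 to 92 for bta-miR-200a and 0 to 48 for bta-miR-205. The epithelial bta-miR-200b was at 0 or 1. Of the 5 markers that passed the filter, only bta-miR-375 had a log2 fold change above 0 (0.60), while that of bta-miR-148a was -0.40. For bta-miR-148b (-1.18), bta-miR-200a (-0.71) and bta-miR-205 (-0.82), a replacement cow had 0 counts. Of the 5, 0 were called, each edgeR adjusted p was 0.986 and every confidence interval included 0. Only bta-miR-148b had diets without overlap (two-sided exact permutation test, p = 0.1), beside 6 of 128 known miRNAs tested (4.69%) that were lower on replacement without overlap. The 7 listed red blood cell markers were the only list with a cow apart, control cow 3 with 20.8%. This cow was also the lowest in 3 members and in the members summed. The edgeR log2 fold change of each of the 7 red blood cell markers was below 0, with a median of -0.92 and 0 called. Of the 7, 1 had an unadjusted edgeR p under 0.05 (bta-miR-451, log2 fold change -1.30), beside 8 of 227 miRNAs tested (3.52%). With the red blood cell markers out of the total, the diet difference in bta-miR-21-5p was 0.243 instead of 0.250 percentage points. Without control cow 3 altogether it was 0.127, and without control cow 2 it was 0.415. The part of leukocyte and epithelial RNA in the members' values was not tested.

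**Figure D5:**
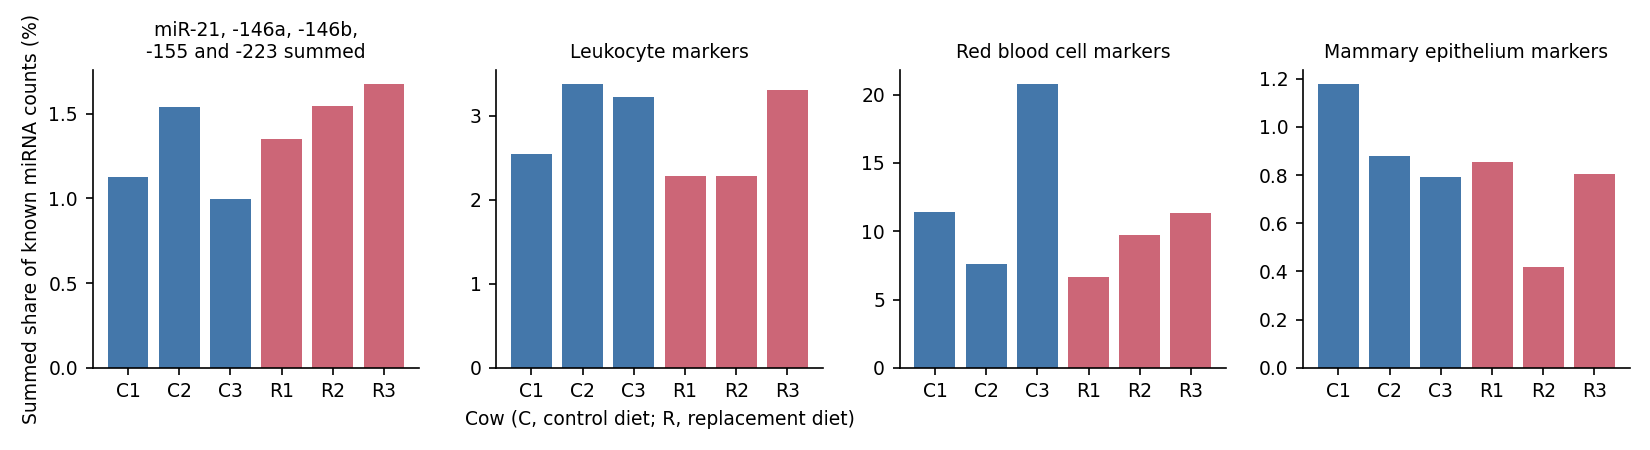
Summed share of the known miRNA counts (%, bars from 0) for the 5 members and for markers of leukocytes, red blood cells and mammary epithelium in control cows (C1 to C3, blue) and replacement cows (R1 to R3, red). Control cow 3 has the highest red blood cell markers, 20.8%, and the lowest sum of the members, 0.997%.

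The miRNAs whose shares moved most like each member over the 6 cows were also listed, by Pearson's r of the log2 share among 83 known miRNAs with at least 10 counts in every cow. The 6 cows differ in depth and all shares of a cow have 1 total, so these are descriptions only. For bta-miR-21-5p they were bta-miR-30e-5p (r = 0.966, Spearman's rho = 0.943), bta-miR-3600 (r = 0.954) and bta-miR-98 (r = 0.950). For bta-miR-146a they were bta-miR-425-5p (r = 0.904, rho = 0.829), bta-let-7e (r = 0.767) and bta-miR-1271 (r = 0.755). For bta-miR-146b they were bta-miR-143 (r = 0.924, rho = 0.943), bta-miR-192 (r = 0.850) and bta-miR-27a-3p (r = 0.818). For bta-miR-155 they were bta-miR-375 (r = 0.889, rho = 0.771), bta-let-7c (r = 0.807) and bta-miR-181b (r = 0.734). No member was among the 3 nearest of another. The member bta-miR-223 was left out, as control cow 3 had 7 counts.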

How the data were processed

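Small RNA libraries of milk EVs from 6 cows were analysed. The authors trimmed reads (cutadapt 1.14 per the labels), aligned them to the cow genome (Bowtie and ARS-UCD1.2 in the submitters' processing notes), filtered out other RNA classes by Rfam and BLAST, took known miRNAs from miRBase and used miRDeep2 for predicted ones. The counter, strand and treatment of multiply matching reads are not given in the sources used here. The first deposited table holds raw counts for each mature miRNA and cow. The authors also deposited RPM values, named TPM, which are counts scaled by 1 total per cow of 12130660 to 13369168 reads. A table of the authors' own diet comparison, with fold changes and p-values, was not used.

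Shares are percent of the summed counts of all Bos taurus miRNAs, with 95% Wilson intervals. Diets were compared with edgeR 4.0.16 (TMM, default filter, quasi-likelihood test, Benjamini-Hochberg adjustment over 227 miRNAs), in R 4.3.3, the alternatives being DESeq2 1.42.0, limma 3.58.1, other scaling and filters and leaving out each cow, and by exact permutation of shares. The fits were tested on simulated data in which some miRNAs changed by 3 on the log2 scale. With dispersion as in the data, edgeR called 21 of 54 changed miRNAs tested and 1 of 223 unchanged ones. There limma called 18 of 54 changed miRNAs and DESeq2 39 of 98. In this simulation the tests thus missed most changes of that size. The changed miRNAs were drawn at random from the whole table, so this is not a rate for the members. Standard errors are the log2 fold change over the root of the F statistic. Figures and other values used Python 3.11.15. Members and lists were chosen with earlier results of these data known. Named miRNAs are the members, those sharing their seed or within 2 nt, the inflammation list, marker lists, the neighbours in mean share and the 3 most alike. The comparison of 8 pairs and the other values of marker miRNAs named singly were added after values were seen. Nothing in the labels says that cows of equal number share a litter, batch or day, and their deviations from the diet means correlated at -0.11, -0.16 and 0.18, so they were not paired. No pair of cows on a diet was alike within sampling noise (chi-square per degree of freedom of 63.2 or more).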

Additional observations from a re-analysis of the deposited data

Results flagged for a closer look

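Of 14 values checked for 1 cow apart from the other 5 (Dixon's criterion), 1 met it. Chance alone gives about 0.7 among 14, so this number is near that of chance. The red blood cell markers held 20.8% of the known miRNA counts in control cow 3 and 6.68% to 11.4% in the others. None of the 5 members met it: the nearest were bta-miR-146a in replacement cow 2 (0.265% against at most 0.150% elsewhere) and bta-miR-155 in replacement cow 3 (0.0890% against at most 0.0540%).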

How the results depend on the processing

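No member passed the adjusted p of 0.05 under any of the alternatives run, and the smallest adjusted p of a member was 0.623. The direction of the log2 fold change was less stable. That of bta-miR-146b turned to 0.33 with library size alone and to 0.092 with the pair summed, and that of bta-miR-155 turned to 0.082 with DESeq2 size factors, 0.49 with library size alone and 0.037 with DESeq2. With library size alone, the log2 fold change of every member was above 0, from 0.33 for bta-miR-146b to 1.21 for bta-miR-223. The TMM factors of the main fit did not overlap between the diets. They were 0.668 to 0.892 in control cows and 1.15 to 1.36 in replacement cows. Library size alone also moved the median of all miRNAs from 0.029 to 0.63, and DESeq2 size factors moved it to 0.17. Leaving out 1 cow at a time gave -0.012 to 0.90 for bta-miR-21-5p, -0.059 to 0.85 for bta-miR-146a, -0.83 to 0.23 for bta-miR-146b, -0.62 to 0.34 for bta-miR-155 and -0.13 to 2.08 for bta-miR-223. With the replicate block these were 0.43, 0.58, -0.69, -0.11 and 0.94, and the block changed no call.

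The difference in share turned for bta-miR-146b, to 0.00585 percentage points with predicted miRNAs in the total and 0.0264 with the pair summed, and for bta-miR-155, to -0.221 RPM in the deposited values. Without 1 cow it ran from -0.0609 to 0.0314 for bta-miR-146b and from -0.0177 to 0.0153 for bta-miR-155. The number of miRNAs called was 0 in edgeR, 15 without the filter, 7 with DESeq2 and 0 to 1 without 1 cow (1 without control cow 2 or without control cow 3), none of them a member. With predicted miRNAs in the total, the members' summed share was 0.397%. The summing of the pair, and the ranges, CVs and pair balance without 1 cow, were chosen after seeing the data. The cause of these changes was not tested. Depth limits bta-miR-155 and bta-miR-223 most, with 270 and 383 counts over all cows and a counting CV of 16.1% and 13.5%.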
